A study of Mus musculus with 2 samples.

Results

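The Toll-like receptor family of LPS-stimulated macrophages was described from 10 genes, *Tlr1* to *Tlr9* and *Tlr13*, each taken by its symbol from a table of 37451 mouse genes. All 10 had a row. 8 of the 10 reached a mean of at least 1 FPKM over the 2 libraries and are among the 10765 genes for which a ratio was read. Levels are FPKMs, that is, fragment numbers scaled to exon length and to the total of mapped fragments, so that genes can be compared within a library.

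RNA-Seq was performed as a control for a crosslinking study of tristetraprolin (TTP, gene *Zfp36*), a protein that binds AU-rich elements of mRNAs and promotes their decay. Primary bone marrow-derived macrophages (BMDMs) were grown with CSF-1 from mice 7 to 9 weeks old. The WT library came from C57BL/6 littermates. The ΔM library came from C57BL/6 TTP fl/fl LysMCre mice, in which Cre, expressed from the lysozyme M locus, deletes the floxed gene in myeloid cells. All cells had been labeled with 100 µM 4-thiouridine (4sU) for 16 h and then received LPS at 10 ng/ml for 6 h, so neither library is an unstimulated reference. The time is that of the protocol and the design text, whereas the sample titles carry the tag LPS7, which is not explained. The header of the second column of levels is damaged and reads FPKM ?M. It was taken as ΔM because it ends in M and the other column is named WT, and the direction of every ratio rests on this reading. Each genotype had 1 library. Differences between genotypes therefore have no replicate check in these data, and no p-value is given. The paper also compared WT and ΔM macrophages at 6 h of LPS by separate RNA-Seq with biological replicates, which was not used here. A difference between the 2 libraries used here cannot be told apart from one between cultures or animals. In such bulk RNA, fewer cells of a type and less RNA per cell cannot be told apart either.

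Toll-like receptors recognize conserved microbial molecules through leucine-rich repeats and signal through a cytoplasmic TIR domain. One set works at the cell surface. TLR4 with MD-2 and CD14 senses LPS, TLR2 senses lipoproteins together with TLR1 or TLR6, and TLR5 senses flagellin. The other set depends on the carrier protein UNC93B1 to reach endosomes, where proteases process the receptors and nucleic acids are read. Double-stranded RNA is read by TLR3, single-stranded RNA by TLR7, CpG DNA by TLR9 and a stretch of bacterial ribosomal RNA by TLR13. TLR8 belongs to this set as well. In macrophages the family couples to MyD88 or TRIF and from there to NF-κB, MAP kinases and interferon regulatory factors.

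The targeted gene was checked in both libraries. *Zfp36* (mm9, chr7:29161803-29164274, minus strand) was at 65.3 FPKM in WT against 16.7 FPKM in ΔM, a ratio of 0.256, so that the column read as ΔM was the lower of the pair, although transcript of the gene remained in it. Fragment numbers were estimated from the steps between low FPKMs at 37200000 in WT and 32840000 in ΔM. The 95% intervals given below for single genes rest on these estimates, are approximate, and cover counting error only. All 7 macrophage markers were above 1 FPKM in both libraries. They ranged from 2.15 to 2481 FPKM in WT and from 3.48 to 1356 FPKM in ΔM, the highest being *Lyz2*, the gene of the locus that carries Cre. Of 5 B cell, 4 T cell, 3 conventional dendritic cell and 3 fibroblast markers, 0 reached 1 FPKM in either library, and their sums were at most 0.42 FPKM. Of 4 plasmacytoid dendritic cell markers, *Bst2* and *Tcf4* were above 1 FPKM. *Siglech* was at 0.02 FPKM in WT against 0.10 FPKM in ΔM, and *Ccr9* was at 0.07 against 0.11 FPKM. The sum of the 4 was 348.8 FPKM in WT against 324 FPKM in ΔM, nearly all of it from *Bst2* and *Tcf4*. Of 5 neutrophil markers, *Ly6g*, *Elane* and *S100a9* were listed at 0 in both libraries. *S100a8* was at 50.7 FPKM in WT against 100.02 FPKM in ΔM and made up nearly all of the neutrophil sum, which was 50.8 and 100.07 FPKM. The part of this marker in the results was not tested.

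TTP binds AU-rich elements, so the 3′ UTRs of the family were searched for the pentamer AUUUA and the heptamer UAUUUAU, which contains it. The mRNA strand alone was read, overlapping matches were counted, and 1 coding transcript per gene of the GENCODE M1 annotation was used. The heptamer was present in 2 of the 10 genes. *Tlr3* held 3 heptamers in 1248 nt, and *Tlr4* held 1 in 1321 nt. Of all 19909 annotated 3′ UTRs of coding genes, 23.9% held at least 1 heptamer, and of 3′ UTRs of a length like that of *Tlr4* or *Tlr3*, 31.3% and 30.5% did. The sites are shown because they are the letters that TTP is known to prefer. They were read from NCBIM37 (mm9), 5′ to 3′ on the mRNA strand, with the heptamer in capitals and T for U:
*Tlr4*, chr4:66503049-66503071, plus strand, position 544 of the 3′ UTR: gaatgctaTATTTATtaaataca
*Tlr3*, chr8:46482164-46482186, minus strand, position 89: gttttgtaTATTTATttatatgt
*Tlr3*, chr8:46482160-46482182, minus strand, position 93: tgtatattTATTTATatgtatag
*Tlr3*, chr8:46481860-46481882, minus strand, position 393: cttgaactTATTTATctctgcct
The *Tlr3* heptamers at positions 89 and 93 overlap, and together they spell a run of repeated ATTT units. The *Tlr4* heptamer lies further from the stop codon than those of *Tlr3*.

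Other members held fewer or 0 of these motifs. Pentamers numbered 5 in *Tlr3*, 2 in *Tlr4* and 1 in *Tlr7*, at position 257 of its 407 nt 3′ UTR, and 0 in the other 7 genes. Of all annotated 3′ UTRs, 60.9% held a pentamer. The 3′ UTR of *Tlr13* is 859 nt long and held neither motif, whereas 68.3% of 3′ UTRs of like length held a pentamer. The annotated 3′ UTRs of *Tlr1*, *Tlr6* and *Tlr8* were 34, 36 and 58 nt long, against a median of 822 nt over all genes, and left little room for a match. A motif match is a description of the letters, and the lack of one says nothing about the factor.

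A TTP site of the family was present in the study's list of crosslinked sites after 3 h of LPS, not the time stated for the libraries. The search kept only 1 site, and whether the study's lists hold others of the family was not examined. The site kept lies in *Tlr4* and is annotated as intronic, at chr4:66508588-66508598 on the plus strand. It lies 4753 nt beyond the end of the *Tlr4* transcript that carries the full coding sequence, within an intron of 1 longer coding transcript. It is printed with its surroundings because it shows that the listed site and the 3′ UTR heptamer of *Tlr4* are different places. The listed bases are in capitals and contain an ATTTA:
*Tlr4*, chr4:66508578-66508606, plus strand: aaaaaggtgcTTCATTTATCTgatgattt

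The family spanned from above 100 FPKM to an empty row. In WT, *Tlr13*, *Tlr7* and *Tlr8* were far above the rest, and all 3 lie on the X chromosome. *Tlr2*, *Tlr4*, *Tlr1* and *Tlr3* formed a middle group between 8.82 and 14.5 FPKM. *Tlr6* was at 3.06 FPKM, *Tlr9* was below 1 FPKM, and *Tlr5* was listed at 0. Set among the 10765 genes tested, *Tlr13* stood at the 90.8th percentile of WT levels, *Tlr7* and *Tlr8* at 87.7 and 87.6, *Tlr2* at 67.1, *Tlr3* at 56.5 and *Tlr6* at 30.3. The same 3 genes led in ΔM.

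**Figure D1:**
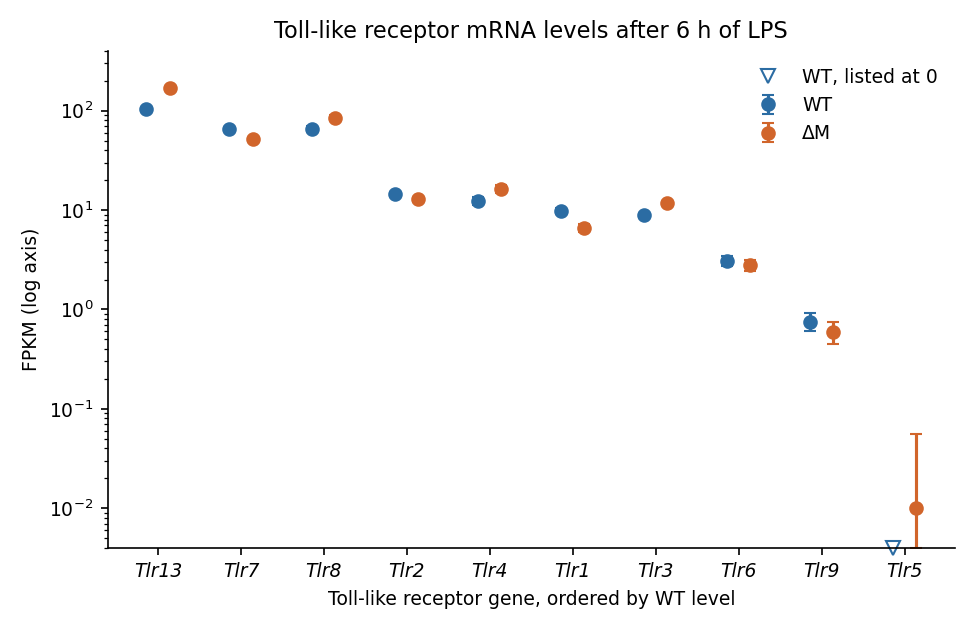
Level of each Toll-like receptor gene in FPKM on a log axis, in the WT library (blue) and the ΔM library (orange), with 95% counting intervals as bars; the open triangle marks a value listed at 0. *Tlr13*, *Tlr7* and *Tlr8* lie above 50 FPKM in both libraries, and *Tlr9* and *Tlr5* lie below 1 FPKM.

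Counting error separated most neighbors in the order of levels. In WT, only the neighbors *Tlr7* and *Tlr8*, and *Tlr1* and *Tlr3*, had counting intervals that overlapped. The largest step among the higher genes was from *Tlr8* to *Tlr2*, a ratio of 4.50. In ΔM, *Tlr8* stood above *Tlr7* and *Tlr4* above *Tlr2*, and only *Tlr2* and *Tlr3* overlapped. Ranks 1, 8, 9 and 10 belonged to *Tlr13*, *Tlr6*, *Tlr9* and *Tlr5* in both libraries.

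The endosomal receptors carried most of the family's transcript. *Tlr13*, the receptor of bacterial ribosomal RNA (ENSMUSG00000033777, chrX:103338543-103355832, plus strand), was at 103 FPKM in WT (95% counting interval 101 to 105) against 167 FPKM in ΔM (164 to 170.1). The ΔM level was 1.62 times the WT level (1.57 to 1.67), and the log2 ratio after adding 1 FPKM was 0.69. *Tlr13* was the only member past 1.5-fold in either direction. Of all genes tested, 14.8% had a ratio at least as far from 0 in either direction, and of the protein-coding genes tested, 6.65% had.

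*Tlr7*, a receptor of single-stranded RNA, and *Tlr8* lie next to each other on the minus strand of the X chromosome with 40599 nt between them. *Tlr7* (ENSMUSG00000044583, chrX:163742861-163768490) was at 65.8 FPKM in WT (63.8 to 67.8) against 51.4 FPKM in ΔM (49.6 to 53.3), a ratio of 0.782 (0.745 to 0.820). *Tlr8* (ENSMUSG00000040522, chrX:163680626-163702261) was at 65.4 FPKM in WT (60.6 to 70.4) against 84.9 FPKM in ΔM (79.2 to 91.0), a ratio of 1.30 (1.17 to 1.44). The neighbors were thus level in WT and apart in ΔM: *Tlr8* was at 0.993 times the level of *Tlr7* in WT and at 1.65 times in ΔM. *Tlr13* was at 1.56 times *Tlr7* in WT and at 3.24 times in ΔM. The log2 ratios of *Tlr7* and *Tlr8* were -0.35 and 0.37, both within 1.5-fold, and 25.9% and 23.6% of protein-coding genes had a ratio as far from 0.

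Since these 3 genes are X-linked, genes that depend on the sex of the mice were compared as well, a choice made after values had been seen. The labels do not give the sex. *Xist*, expressed from the inactive X of females, was at 1.68 FPKM in WT and listed at 0 in ΔM. The Y-linked genes *Ddx3y*, *Kdm5d*, *Eif2s3y* and *Uty* were present in both libraries, at 1.06 to 5.99 FPKM in WT against 1.42 to 8.96 FPKM in ΔM. Each was higher in ΔM, with ratios of 1.5, 1.34, 1.39 and 2.38. The 230 X-linked protein-coding genes tested had a median log2 ratio of 0.01, and 6 of them had a ratio at least as high as that of *Tlr13*. Among all 8078 protein-coding genes tested, 262 had such a ratio, a share of 3.24%. The part of sex in the levels of *Tlr7*, *Tlr8* and *Tlr13* was not tested.

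*Tlr3*, the receptor of double-stranded RNA and the member with the most AU-rich motifs (ENSMUSG00000031639, chr8:46481019-46495962, minus strand), was lower than the other endosomal RNA receptors. It was at 8.82 FPKM in WT (8.35 to 9.31) against 11.7 FPKM in ΔM (11.1 to 12.3), a ratio of 1.33 (1.23 to 1.43) and a log2 ratio of 0.37. *Tlr9*, the receptor of CpG DNA (ENSMUSG00000045322, chr9:106124929-106129207, plus strand), was at 0.75 FPKM in WT (0.604 to 0.921) against 0.59 FPKM in ΔM (0.454 to 0.754). Its ratio of 0.787 had an interval from 0.561 to 1.10, so that a difference between the libraries was not detectable at this depth.

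The surface receptors were all below *Tlr13*, *Tlr7* and *Tlr8*, and overlapped in level with *Tlr3* and *Tlr9*. *Tlr4*, the receptor of the LPS used here (ENSMUSG00000039005, chr4:66488618-66591318, plus strand), was at 12.2 FPKM in WT (11.2 to 13.4) against 16.3 FPKM in ΔM (14.9 to 17.7). The ratio was 1.33 (1.17 to 1.5), and *Tlr4* was the only surface receptor with a ratio above 1 among the 4 tested. Its log2 ratio of 0.38 was almost that of *Tlr3* and *Tlr8*, with 22.6% of protein-coding genes as far from 0.

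*Tlr2*, which pairs with TLR1 or TLR6 (ENSMUSG00000027995, chr3:83640195-83645689, minus strand), was at 14.5 FPKM in WT (13.8 to 15.3) against 12.9 FPKM in ΔM (12.1 to 13.6), a ratio of 0.885 (0.820 to 0.956). *Tlr2* was therefore above *Tlr4* in WT, by 1.19 times, and below it in ΔM, at 0.792 times.

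The partner genes *Tlr1* and *Tlr6* lie on the minus strand of chromosome 5 with 20344 nt between them, and *Tlr1* was the higher of the pair in both libraries. *Tlr1* (ENSMUSG00000044827, chr5:65316050-65324000) was at 9.78 FPKM in WT (9.15 to 10.4) against 6.60 FPKM in ΔM (6.05 to 7.19). Its ratio of 0.675 (0.605 to 0.752) was the lowest among the 8 members tested. *Tlr6* (ENSMUSG00000051498, chr5:65344345-65351287) was at 3.06 FPKM in WT (2.71 to 3.45) against 2.77 FPKM in ΔM (2.41 to 3.16), a ratio of 0.905 with an interval from 0.754 to 1.09 that includes 1. *Tlr1* was at 3.20 times *Tlr6* in WT and at 2.38 times in ΔM. The transcripts of *Tlr1* and *Tlr6* share a stretch of 229 nt, and 17.4% of 50-nt windows of *Tlr1* and 17.8% of those of *Tlr6* occur in the other. Uniquely mapped reads were kept by the study, so fragments from this stretch could be missing from both genes, and their levels are less certain than those of the other 8 members, which shared 0 such windows with any annotated coding transcript.

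*Tlr5*, the flagellin receptor (ENSMUSG00000079164, chr1:184884919-184906175, plus strand), was listed at 0 in WT and at 0.01 FPKM in ΔM, which corresponds to about 1 fragment. No ratio was calculated. The family members *Tlr11* and *Tlr12*, which sense profilin in mice and were not among the 10, were also near the bottom: *Tlr11* was listed at 0 in both libraries, and *Tlr12* was at 0.12 FPKM in WT against 0 in ΔM.

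**Figure D2:**
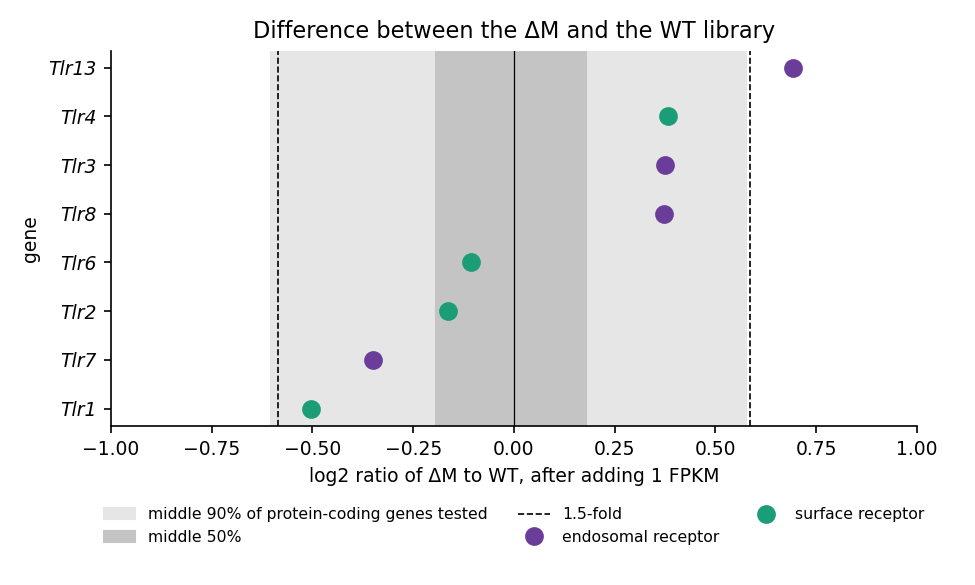
Log2 ratio of ΔM to WT after adding 1 FPKM for the 8 members tested, colored by site of action, over the middle 90% and 50% of 8078 protein-coding genes (gray bands) with 1.5-fold marked by dashed lines. *Tlr13*, at 0.69, lies outside the dashed lines and the wider band, and *Tlr1*, at -0.50, lies inside both.

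Taken as a list, the members were balanced. The 8 tested had a median log2 ratio of 0.13, with 4 above and 4 below 0. Past 1.5-fold, 1 was higher in ΔM, against 11.2% of all genes tested, and 0 were lower, against 7.51%. Past 2-fold, 0 were higher, against 5.69%, and 0 were lower, against 3.61%. The members' counts were near this background. Over all 10765 genes tested the median was 0.03. Among the 8078 protein-coding genes tested, 4.82% were higher and 5.36% were lower past 1.5-fold, and the middle 90% of log2 ratios lay between -0.60 and 0.58. With 1.5-fold at 0.585 on the log2 scale, *Tlr13* at 0.69 was the member just past the threshold and *Tlr1* at -0.50 the nearest of those that did not reach it. Counting intervals of the plain ratio could be given for 9 members. They lay above 1 for *Tlr13*, *Tlr8*, *Tlr4* and *Tlr3*, below 1 for *Tlr7*, *Tlr2* and *Tlr1*, and included 1 for *Tlr6* and *Tlr9*. Counting error is only a part of the difference between cultures, so that an interval apart from 1 is not a difference between the genotypes.

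**Figure D3:**
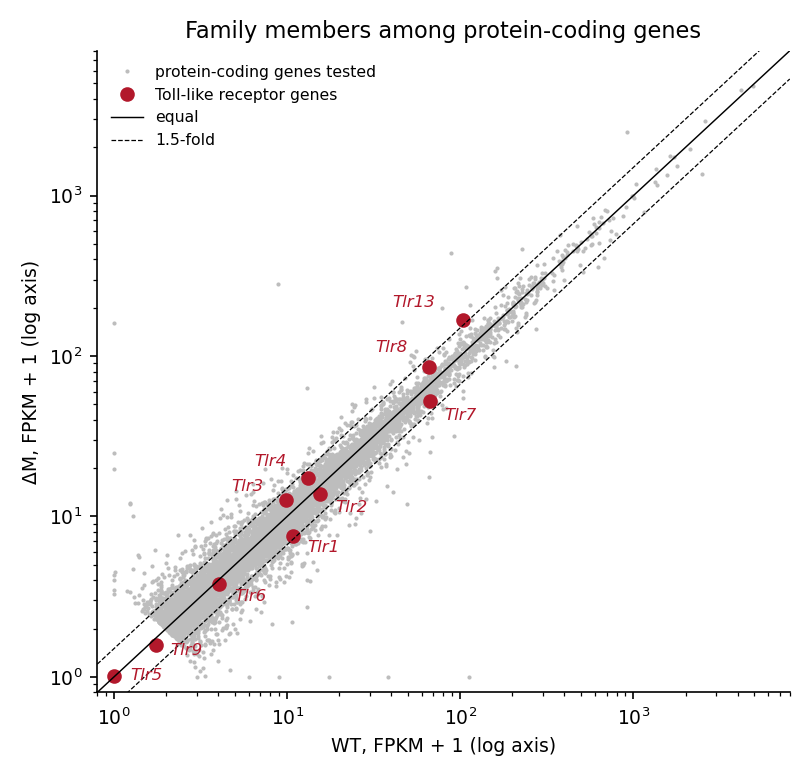
FPKM + 1 of each protein-coding gene tested (gray) and of the 10 Toll-like receptor genes (red) in WT (x axis) and ΔM (y axis), both on log axes, with lines for equal levels and for 1.5-fold. The family runs along the diagonal, and *Tlr13* is the only member beyond a 1.5-fold line.

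Grouped by site of action, the endosomal genes tested had a median log2 ratio of 0.37 with 3 of 4 above 0, and the surface genes tested had a median of -0.14 with 1 of 4 above 0. With 4 genes in each group and 1 library per genotype, the groups were not tested against each other. The summed level of the 10 genes was 283 FPKM in WT against 354 FPKM in ΔM, 1.25 times as much. The 5 endosomal genes went from 244 to 316 FPKM, and the 5 surface genes were at 39.6 and 38.5 FPKM. The endosomal share of the sum was 86.0% in WT and 89.1% in ΔM. *Tlr13* alone made up 36.3% of the sum in WT and 47.1% in ΔM, whereas the share of *Tlr7* was 23.2% in WT and 14.5% in ΔM. *Tlr8* held 23.1% and 24.0%.

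**Figure D4:**
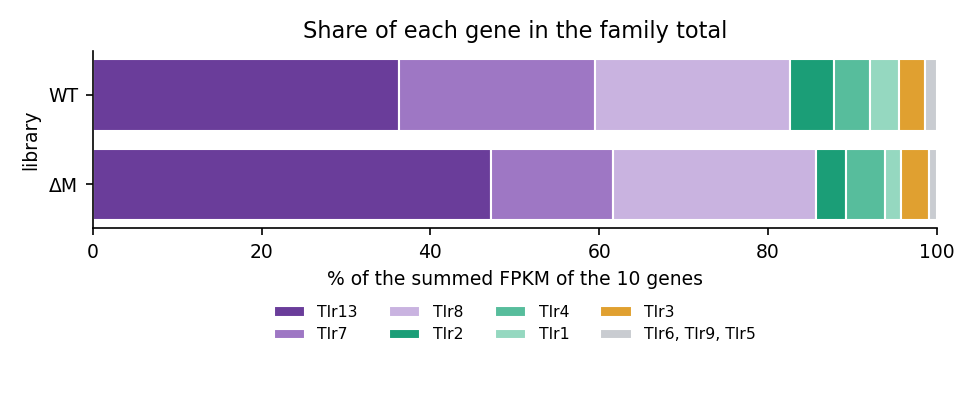
Share of each gene in the summed FPKM of the 10 Toll-like receptor genes, in percent, for the WT and the ΔM library. *Tlr13*, *Tlr7* and *Tlr8* together hold 82.6% of the sum in WT and 85.6% in ΔM, and the segment of *Tlr13* is the widest in both.

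The motif content and the ratios were set side by side. The genes with heptamers, *Tlr3* and *Tlr4*, both had a ratio of 1.33. Of the protein-coding genes tested, 23.4% and 22.6% had a log2 ratio as far from 0 in either direction. *Tlr13*, without either motif in its annotated 3′ UTR, had the highest ratio at 1.62, and *Tlr8*, with a 3′ UTR of 58 nt, was at 1.30. *Tlr7*, with 1 pentamer, was at 0.782. The other tested members without either motif, *Tlr1*, *Tlr2* and *Tlr6*, were at 0.675, 0.885 and 0.905. Members without these motifs lay on both sides of 1. A relation between motifs and ratios was not tested.

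The other genes of the pathway were read from a list of 39, of which 32 reached a mean of 1 FPKM. Their median log2 ratio was -0.07, with 15 above and 17 below 0. Past 1.5-fold, 1 of the 32 was higher and 1 was lower in ΔM, fewer than the 11.2% and 7.51% of all genes tested would give and near the 4.82% and 5.36% of protein-coding genes.

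Genes for folding and transport of the receptors were all detected, from 7.28 FPKM for *Cnpy3* upward in WT, and 0 of 5 were past 1.5-fold. *Unc93b1*, the carrier of the endosomal receptors, was at 139 FPKM in WT against 135 FPKM in ΔM. *Hsp90b1*, the chaperone gp96, was at 97.1 and 89.3 FPKM. *Nrros*, a leucine-rich repeat protein of the endoplasmic reticulum, was at 60.4 and 79.2 FPKM, a ratio of 1.31 (1.25 to 1.38). The median log2 ratio of the 5 genes was 0.10.

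The endosomal proteases, which cut the receptor ectodomains, were all above 0 on the log2 scale, with a median of 0.42 over 5 genes. *Ctss* (cathepsin S) was at 1346 FPKM in WT against 1473 FPKM in ΔM. *Ctsb* (cathepsin B) was at 449.8 and 497 FPKM. *Ctsl* (cathepsin L) was at 374 and 570.3 FPKM, a ratio of 1.53 and a log2 ratio of 0.61, and was the pathway gene past 1.5-fold higher. Centred on the median of the genes tested, its log2 ratio was 0.580, just short of 1.5-fold.

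Co-receptors of the surface set were all below 0, with a median of -0.15 over the 5 of 6 tested. *Cd14*, which hands LPS to the TLR4 complex, was at 117 FPKM in WT against 109.8 FPKM in ΔM. *Cd36* was at 59.6 and 43.8 FPKM. *Ly86*, the partner of the TLR4-like protein CD180, was at 31.9 and 28.2 FPKM.

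Among the adaptors, *Pik3ap1* was at 167 FPKM in WT against 168 FPKM in ΔM. *Myd88*, the adaptor of most members, was at 53.9 and 59.9 FPKM. *Tirap*, which bridges TLR2 and TLR4 to MyD88, was at 9.76 and 9.82 FPKM. The median over the 4 of 6 tested was 0.01.

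Among the 11 kinases and ligases the median was -0.10. *Irak2*, a kinase of the MyD88 complex, was at 29.6 FPKM in WT against 17.9 FPKM in ΔM, a ratio of 0.604 (0.558 to 0.654) and a log2 ratio of -0.70, and was the pathway gene past 1.5-fold lower. *Ikbke* was at 83.6 and 78.3 FPKM, *Irak3*, an inhibitory member of its family, was at 35.4 and 28.9 FPKM, and *Tbk1* was at 33.8 and 30.6 FPKM.

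Of the 4 genes listed as brakes, 2 were tested. *Tnfaip3*, the ubiquitin-editing enzyme A20, was at 109.9 FPKM in WT against 73.3 FPKM in ΔM. Its plain ratio of 0.666 (0.645 to 0.689) was at 1.5-fold. The log2 ratio after adding 1 FPKM, on which calls rest, was -0.58, just short of 1.5-fold. At -0.61 after centring, it was past 1.5-fold. *Tollip* was at 23.0 and 16.2 FPKM, a log2 ratio of -0.48. *Sigirr* was at 0.06 and 0.07 FPKM.

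**Figure D5:**
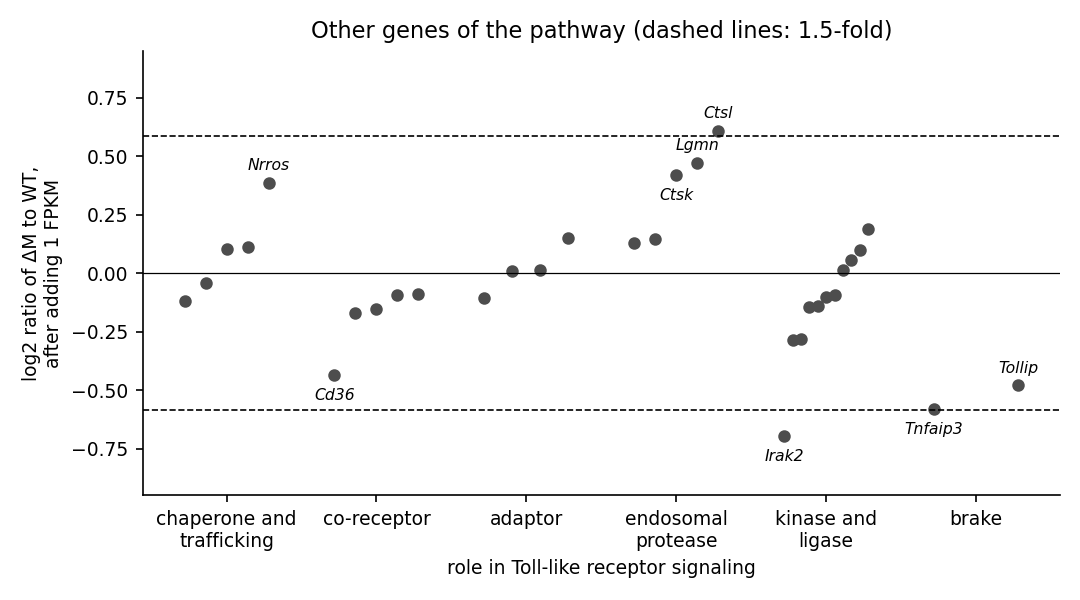
Log2 ratio of ΔM to WT after adding 1 FPKM for the 32 other pathway genes tested, grouped by role, with dashed lines at 1.5-fold. Without centring of the ratios, *Ctsl*, at 0.61, and *Irak2*, at -0.70, lie outside the lines, and *Tnfaip3*, at -0.58, lies almost on one.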

How the data were processed

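RNA was depleted of rRNA, fragmented and sequenced by the authors as 100-base paired-end reads. Reads were trimmed with Cutadapt and mapped to mm9 with Segemehl, uniquely mapped reads were kept, and the authors calculated the deposited FPKM values per Ensembl gene with Cufflinks. Both columns were used, the second, with a damaged header, as ΔM. No count model was applied to these scaled values.

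Ratios were log2((ΔM + 1)/(WT + 1)), which understates changes of low genes, where the mean of both libraries reached 1 FPKM; called genes were past 1.5-fold or 2-fold. Members and lists were chosen with earlier results of these data known. Named were all members, *Zfp36*, *Tlr11*, *Tlr12*, and pathway genes past 1.5-fold or among the 3 highest of their role in WT. *Cnpy3*, *Lyz2* and the other marker and sex-chromosome genes were named beside them after values were seen.

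Depth was estimated as the number of fragments and mean fragment length (201.5 nt in WT, 201 nt in ΔM) under which low FPKMs are whole multiples of 1 fragment. Within a tolerance of 0.15 fragment, 93.7% of 946 values in WT and 94.3% of 940 in ΔM came out whole, against 30% for values without steps. On 3 simulated libraries the estimate was off by at most 0.182%. These libraries were drawn under the model that was fitted, from genes with 1 annotated transcript, so they check the search alone. Poisson intervals of levels and exact binomial (Clopper-Pearson) intervals of ratios (95%) used the median annotated transcript length. For *Tlr8* this length was 491 nt, whereas the coding transcript used for its 3′ UTR had 3431 nt. It was also short for *Tlr4* (1256 against 4077 nt), *Tlr7* (1926 against 3897 nt) and *Tlr13* (2089.5 against 4060 nt). Sequences and 3′ UTRs came from NCBIM37 with GENCODE M1, which held 37039 of the gene identifiers. Python 3.11.15, pandas 2.3.3, scipy 1.17.1 and matplotlib 3.10.9 were used. Alternatives covered the pseudocount, centring, the FPKM minimum, coding genes alone, the order and the transcript length.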

Additional observations from a re-analysis of the deposited data

How the results depend on the processing

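The median log2 ratio of the members depended on which members were counted: it was 0.13 over the 8 tested, 0.37 with a minimum mean of 10 FPKM, which leaves 6 members, and -0.046 with no filter on low values, which adds *Tlr9* and *Tlr5*. With a pseudocount of 0.1 FPKM it was 0.12, and centred on the median of the genes tested it was 0.10. *Tlr13* was the only member past 1.5-fold, and 0 were past 2-fold, under each of these 4 settings. The number of genes tested past 1.5-fold was 2010, and it was 890 with a minimum mean of 10 FPKM, 822 among protein-coding genes alone, 2602 with a pseudocount of 0.1 FPKM and 2370 with no filter. Past 2-fold there were 1002, and 436, 203, 1265 and 1066 under the same settings. Of the genes past 1.5-fold, 59.8% were higher in ΔM among all genes tested, and 47.3% were among protein-coding genes. Of 72 alternatives over 49 results, 56 left a count within 1.5 times, a value within its counting error, or a rank or call as it was. The log2 ratio of each tested member kept its direction and its side of 1.5-fold with the other pseudocount and with centring. Among the pathway genes, for which alternatives were chosen after seeing the data, centring moved *Ctsl* to 0.580 and *Tnfaip3* to -0.61, so that 0 were past 1.5-fold higher and 2 lower, in place of 1 and 1. With the longest annotated transcript in place of the median length, the counting interval of *Tlr8* in WT began at 63.9 FPKM in place of 60.6. No replicate could be left out, and no paired fit exists. No paired analysis was possible because each genotype has 1 library, so that the shared replicate number 1 pairs nothing.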
